A study of Caenorhabditis elegans with 8 samples.

Results

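First introns of Caenorhabditis elegans genes were examined in whole adults with and without feeding RNAi against spk-1. They were taken from a table of reads over introns as introns from 46 nt to just under 1000 nt long whose name ends in exon1, with the introns of spk-1 itself left out. The rule found 1968 introns in 1912 genes, of 20324 introns in 5762 genes. A later intron of the same gene was listed for 1584 of them, in 1535 genes, and not for 384. By the annotation, the names hold the number of the exon at the lower coordinate. On the plus strand, 89% of 7569 introns compared had the length of the annotated intron 3′ of the named exon. On the minus strand, 89.7% of 7209 had the length of the intron 5′ of it. The rule therefore took the first introns of genes on the plus strand, 1957 of the 1968, and 11 introns on the minus strand whose names mark the exon on their 3′ side. For 78 of the 1968, another intron of the same gene was listed further 5′, so they are not the most 5′ intron listed for the gene. The 1881 minus-strand introns of the same lengths that come first in their genes stand in the table under exon2. They were not chosen by the rule and served as a comparison.

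An intron is removed by the spliceosome, which joins the donor site at the 5′ end of the intron to the acceptor site at its 3′ end. SR proteins are RNA-binding factors rich in serine and arginine that help to select these sites, and SPK-1 is the kinase that phosphorylates them in worms. The first intron of a worm gene follows the exon that holds the 5′ end of the transcript, which in many genes is a spliced leader joined to the RNA in trans. Worm introns are often very short, and many are close to the lower limit of the lengths used here.

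The worms were adults of the wild-type strain N2, grown at 20 °C and moved as L4 larvae to bacteria with the empty feeding vector L4440 (control) or to bacteria that produce double-stranded RNA of this gene (spk-1(RNAi)). Feeding lasted 24 h at 25 °C in both groups, at least 100 adults were pooled per condition, and each group held 4 libraries from polyadenylated RNA that mark strand. The labels do not say that the replicates were separate cultures, so p-values cover the spread among these libraries and that spread may be technical. A read count is the number of reads that join the exons on either side of an intron.

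Junction reads per library ran from 1821717 in control replicate 2 to 47299659 in control replicate 3, and first introns held 13.9% of them in both libraries of replicate 1 and 17.2% to 19.1% in the others. Libraries of replicates 1 and 2 thus stood apart from the deep replicates 3 and 4 in depth, and replicate 1 also in the share of first introns. The first intron of spk-1, which the rule leaves out, checks the labels: it had 47.3 to 149 CPM (reads scaled to a common library size) in the controls and 6.69 to 27 after spk-1(RNAi). Of the 10 listed introns of spk-1, 8 were lower in 4 of 4 pairs and 2 higher in all 4, and summed over all 10 it had more CPM after spk-1(RNAi), 2040 to 63700 against 379 to 713. Of the marker genes of adult tissues, 12 of 12 for germline and oocytes and 6 of 8 for intestine had a listed intron, as did 5 of 8 for muscle, 1 of 6 for hypodermis and 2 of 6 for neurons. No intron was listed for the 6 sperm or the 3 pharynx markers.

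The first introns had a median length of 58 nt, with quartiles of 50 and 184 nt, and 52.7% were 46 to 60 nt long. Later introns of plus-strand genes in the same range of lengths had a median of 60 nt. Of the first introns, 1591 (80.8%) had the length of an annotated first intron of the named transcript, and 1544 of these lay between coding exons and 32 in a 5′ untranslated region. The first exons of these genes had a median length of 121 nt, with quartiles of 85 and 172 nt. Chromosome I carried 458 of the first introns and chromosome X 107. Their shares, 23.3% and 5.44%, lay beside 24.6% and 4.02% of all plus-strand introns.

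Every listed intron had at least 21 reads in each control library, while the lowest counts after spk-1(RNAi) were 1 to 8. The rule of listing is not given, but a first intron seen mostly in treated worms may be missing. Of plus-strand genes with any listed intron, 77.0% had their first intron listed. This share was 41.6% where the gene's best-covered intron had a mean under 100 reads and 98.7% where it had over 3000. The counts below therefore describe well-covered first introns. The mean over the 8 libraries had a median of 508 reads for the first introns and of 354 for plus-strand later introns of the same lengths.

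In each library the reads of a first intron were divided by the mean reads of the later introns of its gene, after 0.5 was added to both. This first-to-later ratio compares 2 places in the same gene and does not depend on the library total. Its median over the 1584 first introns was 0.930, 1.24, 1.06 and 1.13 in control replicates 1 to 4. After spk-1(RNAi) the medians were 0.932, 1.11, 1.09 and 1.13. The 2 groups overlapped, and both libraries of replicate 1 were the only ones below 1. On the log2 scale the medians averaged 0.12 ± 0.18 (SD, n = 4) in controls and 0.09 ± 0.13 (SD, n = 4) after spk-1(RNAi). Single introns varied far more than the libraries did. In control replicate 3, the middle 50% of first introns lay between ratios of 0.614 and 1.78.

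**Figure D1:**
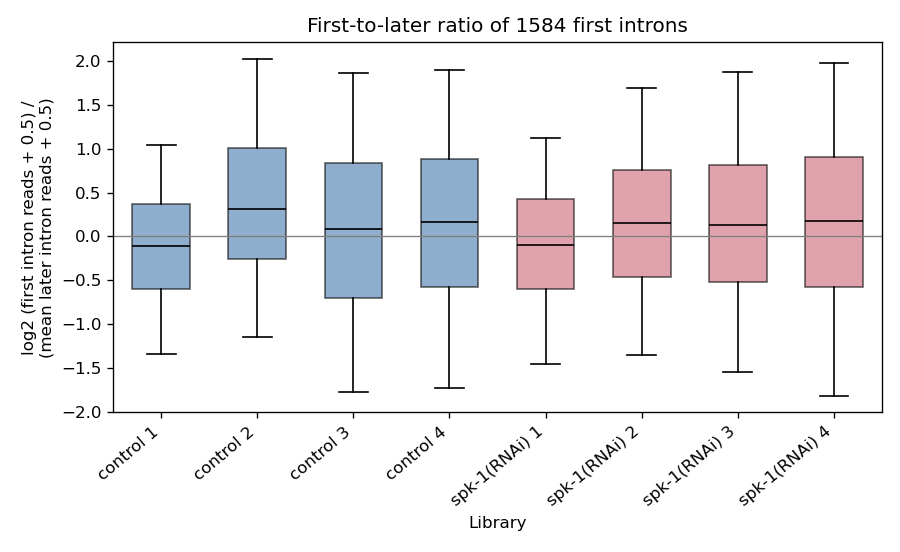
The log2 first-to-later ratio of 1584 first introns in each of the 8 libraries, with boxes from the lower to the upper quartile, a line at the median and whiskers to the 5th and 95th percentiles. The medians of replicate 1 lie below 0 in both groups and the other 6 above 0, and the control and spk-1(RNAi) boxes of each replicate cover much the same range.

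First introns were the high point of the 5′ part of the gene in replicates 2 to 4. In 772 plus-strand genes with at least 5 listed introns, each intron was set against the mean of all listed introns of its gene, itself included. In control replicates 2, 3 and 4 the median level of intron 1 was 0.32, 0.03 and 0.14 on the log2 scale, and that of intron 3 was −0.30, −0.40 and −0.29. In control replicate 1 the levels were −0.09 for intron 1 and −0.10 for intron 3, so the drop was absent there. Libraries of replicates 2 to 4 after spk-1(RNAi) gave the same order, with 0.12, 0.11 and 0.14 for intron 1 and −0.38, −0.19 and −0.30 for intron 3. Levels of introns in one library share depth, length of fragments and base composition, and the part of each in this profile was not tested. Second introns of the same lengths, set against the introns after them, had median ratios of 0.947, 0.914, 0.850 and 0.932 in the 4 controls.

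**Figure D2:**
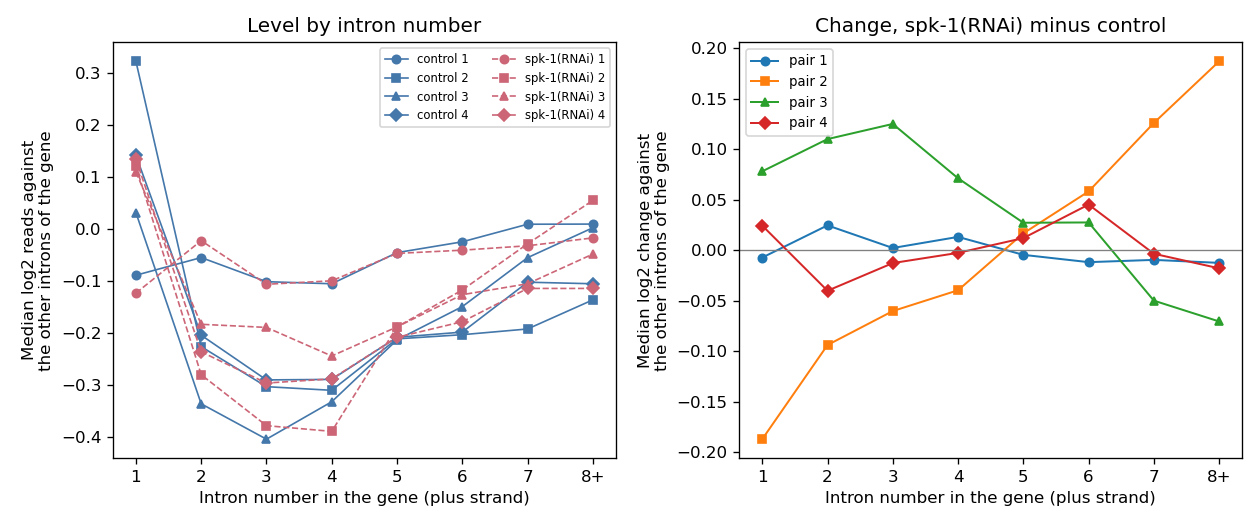
Left, the median log2 level of introns by intron number, for plus-strand genes with at least 5 listed introns. Levels and changes are against the mean of all listed introns of the gene, the intron itself included, which the axes word as the other introns. Solid lines are controls and dashed lines spk-1(RNAi). Right, the median log2 change in each numbered pair of libraries, where pair 2 runs from −0.19 at intron 1 to 0.19 at introns 8 and beyond and pair 3 from 0.08 down to −0.07, while pairs 1 and 4 stay within 0.05 of 0.

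The length of the first exon moved with the ratio, and the direction differed between libraries. After first exons of 51 to 75 nt the median log2 ratio was −0.42 in control replicate 1 and −0.47 in spk-1(RNAi) replicate 1. It was 0.57, 0.39 and 0.28 in control replicates 2 to 4 and 0.48, 0.24 and 0.25 in the spk-1(RNAi) libraries of the same numbers. After first exons of 76 to 100 nt, replicates 3 and 4 reached their highest class medians, 0.59 to 0.78. After first exons of over 200 nt every library had a median below 0, from −0.25 to −0.08. Over 5 classes of intron length the medians lay between 0.06 and 0.17 in control replicate 3 and between 0.21 and 0.51 in control replicate 2. At the lower limit of the rule, introns of 46 to 47 nt had control medians of 0.927 to 1.30 (ratio, 236 introns), and those of 44 to 45 nt just outside it 0.992 to 1.32 (139 introns). At the upper limit, introns of 800 nt to just under 1000 nt had 0.841 to 1.19 (38 introns) and those of 1000 nt to just under 1200 nt 0.807 to 1.13 (21 introns).

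**Figure D3:**
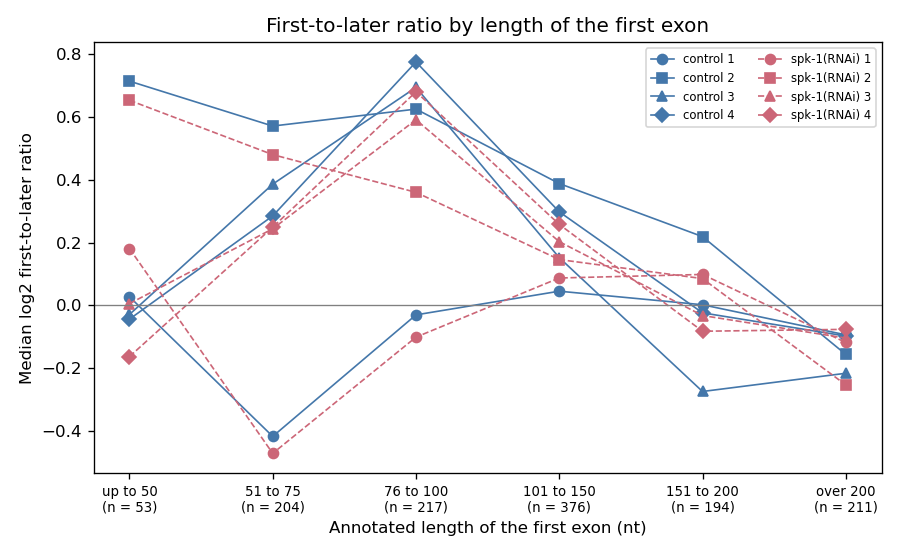
Median log2 first-to-later ratio by annotated length of the first exon, 1 line per library, with the number of first introns in each class under the axis. Both libraries of replicate 1 dip to −0.42 and −0.47 at 51 to 75 nt, where replicates 2 to 4 lie between 0.24 and 0.57.

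After spk-1(RNAi), first introns as a class did not move one way against later introns. Within the numbered pairs of libraries the median log2 change of the first-to-later ratio was 0.01, −0.22, 0.06 and 0.01 for pairs 1 to 4, with a mean of −0.04 ± 0.12 (SD, n = 4 pairs). Pair 2, which holds the shallowest libraries, was the one pair with a clear majority of lower first introns, 65.6%, beside 49.1%, 44.6% and 49.4% in the others. Without pair 2 the mean of the medians was 0.02. In pair 2 the change rose along the gene, from −0.19 at intron 1 to 0.19 at introns 8 and beyond. In pair 3 it ran the other way, from 0.08 at intron 1 and 0.12 at intron 3 to −0.07 at introns 8 and beyond. The mean change of a first intron lay within 0.5 log2 units of 0 in 1437 of 1584 (90.7%), and 5 moved by 1 unit or more. First introns of the minus strand, measured in 1536 genes' introns the same way, gave median changes of 0.01, −0.25, 0.09 and −0.02. Second introns of the plus strand gave 0.02, −0.13, 0.12 and −0.04.

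The first-to-later ratio was lower in all 4 pairs for 139 first introns (8.78%) and higher in all 4 for 97 (6.12%). Over all 18762 introns set against the other introns of their gene, 6.74% were lower and 7.34% higher in all 4 pairs. The figures for minus-strand first introns were 9.05% lower and 4.82% higher. For second introns they were 7.02% and 6.13%. These shares are descriptions and were not tested. With pair 2 left out, 217 first introns were lower and 269 higher in the 3 remaining pairs, so over all first introns the excess of lower ones was not seen without that pair. Among the 418 first introns with a mean of at least 1000 reads, the median change was below 0 in every pair, at −0.04, −0.24, −0.03 and −0.01. There 54 (12.9%) were lower and 18 (4.31%) higher in all 4 pairs. The shares were 8.22% and 7.03% over the 2761 introns with as many reads, first introns included, set against the other introns of their gene. Counts without pair 2, which had the largest median change, are not given for this set.

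No first intron passed the test against the other introns of its gene (edgeR's quasi-likelihood fit with replicate number as a block, Benjamini-Hochberg adjusted p under 0.05 over 18772 introns). The count was 0 of 1600 tested, beside 0.0533% of all introns, which is 10 introns, 8 of them in spk-1. At an unadjusted p under 0.05 there were 56 first introns (3.50%), 29 with a higher and 27 with a lower share of their gene, beside 2.98% of all introns. The smallest adjusted p of a first intron in edgeR's test was 0.333. In replicates 3 and 4 alone edgeR called 1 first intron, beside 0.133% of all introns. Without the block, in all pairs, edgeR called 0, with 4 (0.25%) at an unadjusted p under 0.05, beside 0.139% of all introns. Of 1551 minus-strand first introns tested, edgeR called 1, in nosr-1, and 50 (3.22%) had an unadjusted p under 0.05.

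The 8 first introns with the lowest p and the same direction in 4 of 4 pairs divide into 4 lower and 4 higher ones. None passed the adjusted threshold, so their values describe candidates. How often the groups lie apart over all first introns is not given here. The lowest p belonged to F54D8.6, whose first intron of 49 nt (chromosome III, 5103489 to 5103537, plus strand, ce10) lies between coding exons. Its first-to-later ratio was 1.06, 1.34, 0.524 and 0.827 in the controls and 0.950, 0.739, 0.144 and 0.225 after spk-1(RNAi). The 2 deep replicates carried most of the drop, and the groups overlapped. The mean log2 change was −1.19 ± 0.84 (SD, n = 4 pairs), with an adjusted p of 0.333 in edgeR's test over all pairs and 0.0353 in replicates 3 and 4 alone. Its reads there fell from 524 and 548 to 123 and 133, while the later introns averaged 1001 and 663 in the controls and 860 and 594 after spk-1(RNAi).

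In F43E2.1 the first intron had the most even change. It is 47 nt long (chromosome II, 7375294 to 7375340) and has 1 later intron in the table. Ratios in the controls were 0.195, 0.444, 0.443 and 0.302, and after spk-1(RNAi) 0.0829, 0.200, 0.159 and 0.121. The groups overlapped only at the control of replicate 1 and spk-1(RNAi) replicate 2. The log2 change was −1.29 ± 0.14 (SD, n = 4 pairs), and its adjusted p in edgeR was 1. Reads were few in the shallow libraries, 28 and 25 in the controls and 8 and 10 after spk-1(RNAi).

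The other 2 lower first introns behaved differently between pairs. F59A3.2 had ratios of 0.613, 3.08, 1.90 and 2.90 in the controls and 0.432, 1.66, 0.865 and 1.28 after spk-1(RNAi), a fall in every pair with overlapping groups. The first intron of Y47H9C.8 had ratios of 1.02, 1.56, 1.01 and 1.15 in the controls and 1, 0.685, 0.438 and 0.477 after spk-1(RNAi). Here the groups did not overlap, though pair 1 changed by −0.03 log2 units and the other 3 by −1.19 to −1.27. Their adjusted p-values in edgeR were 0.722 and 1.

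Among the 4 with higher ratios, ears-1, which encodes a glutamyl-tRNA synthetase, had groups that did not overlap. Its first intron of 61 nt had ratios of 0.535, 0.516, 0.332 and 0.477 in the controls and 0.703, 0.622, 0.918 and 0.937 after spk-1(RNAi). The log2 change was 0.78 ± 0.55 (SD, n = 4 pairs), with an adjusted p of 1 in edgeR. In replicate 3 its later introns fell from a mean of 1058 to 703 reads while the first intron went from 351 to 645.

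For orc-1, a subunit of the origin recognition complex, the ratios were 0.722, 0.277, 0.699 and 0.575 in the controls and 0.741, 0.665, 1.451 and 1.165 after spk-1(RNAi). Pair 1 was near 0 at 0.04 log2 units. The first intron of rad-50, which encodes a part of the double-strand break repair complex, had ratios of 0.913, 2.03, 0.212 and 0.133 in the controls and 1.23, 2.18, 0.895 and 0.221 after spk-1(RNAi). In its controls, replicates 1 and 2 were several times higher than 3 and 4. After spk-1(RNAi) replicate 3 came near replicate 1, and pair 3 changed by 2.08 log2 units. In istr-1 the replicates differed by more than the groups, with replicates 1 and 2 several times higher than 3 and 4 in both groups. Its ratios were 1.203, 1.115, 0.176 and 0.206 in the controls and 1.60, 1.13, 0.348 and 0.373 after spk-1(RNAi). Adjusted p-values in edgeR were 1 for orc-1, rad-50 and istr-1.

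The other introns of these genes, each set against the rest of its gene, are given here for comparison. In F54D8.6 the 6 later introns had mean log2 changes of −0.39 to 0.39, all nearer to 0 than the first. In F59A3.2 the 4 later ones lay between −0.00 and 0.56, and in orc-1 the pair of later introns had −0.46 and −0.24. In ears-1 the intron named exon3 changed by −0.71, about as far as the first intron changed the other way (0.78). In rad-50 the changes were spread along the gene: 0.83 for the first intron, −0.76 and −0.97 for those named exon6 and exon8, and 0.70 for exon10. The istr-1 intron named exon2 changed by −0.52, lower in every pair, beside 0.57 for its first intron. In Y47H9C.8 the 3 later introns had 0.18 to 0.34. F43E2.1 had only the intron named exon10 to be set against, so its change equally describes that intron.

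**Figure D4:**
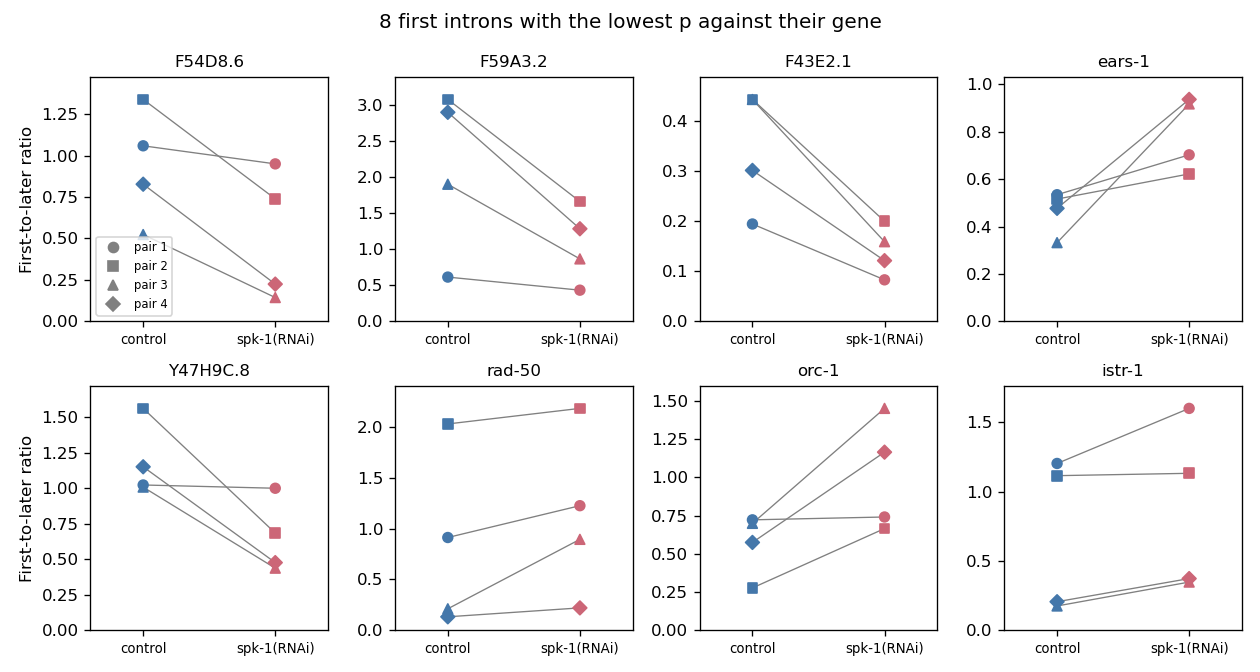
First-to-later ratio in each library for 8 first introns. They have the lowest p against their gene among first introns with the same direction of change in every pair. Grey lines join libraries of the same number, and each gene has a separate axis from 0. By that choice the ratio falls in every pair for F54D8.6, F59A3.2, F43E2.1 and Y47H9C.8. It rises in every pair for ears-1, rad-50, orc-1 and istr-1. Only ears-1 and Y47H9C.8 show groups that do not overlap, and the share over all first introns is not given here.

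In the test of reads alone, which compares the level of each intron between groups, first introns of 1 gene passed. This gene was acdh-1, an acyl-CoA dehydrogenase, whose 2 listed first introns, both 46 nt long, are shifted by 1 nt at both ends (chromosome I, 6497629 to 6497674 and 6497630 to 6497675). Their reads were identical in 3 of 8 libraries and the first copy took 49.3% to 51% of their sum in all 8, so they are read here as 1 event. The first of them had 71.1, 51.02, 32.4 and 56.3 CPM in the controls and 44.97, 20.7, 7.37 and 25.4 after spk-1(RNAi). It was lower in every pair, and only spk-1(RNAi) replicate 1 reached into the range of the controls. The log2 fold change was −1.31 ± 0.22 (SE) with an adjusted p of 0.0288 in edgeR's quasi-likelihood test with the block, and the shifted copy had −1.30 ± 0.23 (SE) and 0.0317.

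The fall in acdh-1 belonged to the gene rather than to the first intron. Its 5 later introns had a median log2 fold change of −1.19, and the first-to-later ratio was 0.760, 0.736, 1.34 and 1.72 in the controls and 0.723, 0.445, 1.46 and 1.96 after spk-1(RNAi), with an unadjusted p of 0.734 against the gene in edgeR. In whole worms, fewer cells of a type and less RNA per cell cannot be told apart. The call on reads was lost without the block (adjusted p = 1 in edgeR) and when any of replicates 2, 3 or 4 was left out (0.0988 to 0.161 in edgeR for the first of the copies). DESeq2's Wald test gave 1.54e-04.

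Over all first introns, 2 of 1968 (0.102%) passed in the test of reads, both of acdh-1 and read above as 1 event. The share over all introns was 0.0689%, which is 14 introns, 9 of them in spk-1, a gene left out of the first introns. At an unadjusted p under 0.05 there were 203 (10.3%), beside 8.4%. The libraries of replicates 3 and 4 alone gave 44 first introns (2.24%) past the adjusted threshold in edgeR, 29 lower and 15 higher, beside 1.41% of all introns. DESeq2's Wald test on all pairs gave 8 (0.407%), beside 0.246% of all introns, which is 50 introns, 10 of them in spk-1. The authors' deposited p-values, which come with their 4 ratios, were under 0.01 for 26 first introns (1.32%) and for 1.26% of all introns. In the authors' deposited exon-bin table, 4 of 112784 bins had an adjusted p-value under 0.05. All 4 belonged to spk-1, and 0 to a gene of the first introns.

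At the extremes of the control ratios (mean of at least 100 reads and at least 3 later introns), the lowest value belonged to cyb-3, a B-type cyclin, at 0.0103, 0.0869, 0.0407 and 0.0573 in the controls and 0.0134, 0.0305, 0.0492 and 0.0412 after spk-1(RNAi). This first intron of 55 nt shares its donor with one of 52 nt, which took 95.6% to 97.9% of the reads of both. sod-1, a superoxide dismutase, and tars-1, a threonyl-tRNA synthetase, followed with 0.0848 to 0.379 and 0.0722 to 0.670 in the controls. Both are among the 11 minus-strand introns, where the name marks the exon 3′ of the intron, so that each lies upstream of the exon it is named for. vit-1, a yolk protein gene near-identical in sequence to its relative vit-2 and so of uncertain read assignment, had 0.207 to 0.432.

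High ratios appeared in replicates 2 to 4 and much less in replicate 1. fzy-1, an activator of the anaphase-promoting complex, had ratios of 1.53, 9.17, 5.99 and 6.50 in the controls and 1.51, 7.35, 3.42 and 5.88 after spk-1(RNAi). K07H8.2 had 1.89, 7.05, 7.06 and 7.62 in the controls and 1.99, 6.21, 2.84 and 5.25 after spk-1(RNAi). tbc-3, a Rab GTPase-activating protein by its TBC domain, had 1.30, 6.35, 6.23 and 6.40 in the controls and 1.197, 5.15, 5.27 and 6.31 after spk-1(RNAi). The germline polarity gene mex-6 had 1.88, 4.61, 5.63 and 6.43 in the controls and 1.93, 3.69, 5.30 and 7.71 after spk-1(RNAi). In all 4 genes replicate 1 was lowest in both groups.

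By the mean over all 8 libraries the highest level was that of rpl-41.2, a ribosomal protein gene, with 7501 ± 2850 CPM in controls and 7006 ± 3823 after spk-1(RNAi) (SD, n = 4). Next came perm-2, an eggshell protein gene, with 214, 453, 8486 and 6244 CPM in the controls and 233, 726, 7440 and 6907 after spk-1(RNAi). Replicates 1 and 2 of both groups were far below replicates 3 and 4, and the ratio to its later introns moved likewise, 0.630, 1.19, 5.65 and 5.49 in the controls. In spk-1(RNAi) replicate 4 both perm-2 and vit-6, a yolk protein gene (5585 CPM), stood above rpl-41.2 (5024 CPM). vit-6 had 3302 ± 1268 and 3850 ± 2033 CPM (SD, n = 4), and rpl-29 had 3744 ± 3559 and 3278 ± 3052 CPM (SD, n = 4). At the limits of length, rps-18 with 46 nt had a ratio of 0.511 to 0.607 in the controls and 0.418 to 0.645 after spk-1(RNAi). The longest, of zyg-8, a kinase of the doublecortin family, had 15.8 to 19.8 CPM in the controls and 10.2 to 17.8 after spk-1(RNAi).

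First introns of SR protein genes, whose products SPK-1 is known to phosphorylate as a family, gave 0 calls in either of edgeR's tests, with 0 at an unadjusted p under 0.05 against the gene and 1 on reads. Of 8 SR protein genes, 7 had a listed intron and 4 a first intron. rsp-1 had ratios of 0.763, 0.581, 0.935 and 0.988 in the controls and 0.741, 0.616, 1.02 and 0.856 after spk-1(RNAi). rsp-8 had 1.48, 3.41, 1.01 and 0.807 in the controls and 2.28, 1.93, 0.934 and 0.731 after spk-1(RNAi), a wide spread within each group. rsp-5 had 0.808, 0.309, 0.407 and 0.376 in the controls and 0.895, 0.355, 0.365 and 0.265 after spk-1(RNAi). rsp-7 had no later intron listed, and its first intron had 37.9 to 71.2 CPM in the controls and 44.2 to 82.5 after spk-1(RNAi).

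Of 65 core splicing factors, 22 had a first intron and 18 of these a later one. The median of their mean changes was −0.00 log2 units, 10 lower and 8 higher, beside −0.04 over all first introns, 894 lower and 690 higher. mog-7 had an unadjusted p of 0.0202 against its gene (adjusted p = 1 in edgeR), with log2 changes of 0.39, 0.24, 1.94 and 0.71 in the 4 pairs. At the other end stood sftb-2, a subunit of splicing factor SF3B, with 0.05, −0.61, −0.84 and −0.38.

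Ribosomal protein genes had 39 first introns in 36 genes, 28 of them with a later intron. Their median first-to-later ratio was below 1 in every library, 0.687 to 0.840 in controls and 0.650 to 0.732 after spk-1(RNAi). Of the 28, 22 had a mean change below 0 and 6 above, beside 894 below and 690 above over all first introns, with a median of −0.11 log2 units, and 0 passed either of edgeR's tests, with 0 at an unadjusted p under 0.05. By pair the medians were 0.05, −0.33, −0.04 and −0.13, and those of all first introns 0.01, −0.22, 0.06 and 0.01. The range ran from −0.33 for a first intron of rps-27A to 0.14 for that of rpl-5.

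In 50 genes the table held several first introns, which differ at 1 or both ends. In 2 of these genes, acdh-1 and cogc-4, 2 first introns of 46 nt are shifted by 1 nt at both ends. Whether those are separate events was not tested. The share of the most 5′ first intron among all first introns of its gene changed by under 10 percentage points in 49 of the 50 on average over the 4 pairs. Single pairs moved further, from −25.1 to 28.2 points, and 32 genes had a pair with a change of 10 points or more. It moved in one direction in all 4 pairs in 9 genes, lower in 8 and higher in 1. This count was not tested and has no set of other introns beside it. By the size of its change Y71G12B.13 stood out, a gene chosen after its values were seen. Its shares were 35.7%, 54.3%, 29.0% and 22.5% in the controls and 14.5%, 31.3%, 7.85% and 15.9% after spk-1(RNAi). The mean fall was 18.0 points, and the groups overlapped. Y71G12B.13 also had the fewest first-intron reads of the 50 genes, 1983 in all and 62 in its lowest library. nop-1, a gene of early embryonic pseudocleavage, went from 51.5% ± 9.15 to 44.9% ± 6.66 (SD, n = 4), lower in every pair, with overlapping groups. ccr-4, a deadenylase, was the one with a higher share in every pair, 11.8% ± 12.0 and 15.8% ± 10.6 (SD, n = 4). No first intron of these 50 genes passed edgeR's test against its gene.

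The donors of first introns in 8 genes were joined to a pair of acceptors at most 10 nt apart. In acs-19, C37C3.2, eif-3.G and taf-10 the nearer acceptor gives an intron of 40 to 45 nt, under the lower limit of the rule. There the intron taken by the rule is the one to the farther acceptor. The share of the acceptor nearer the donor changed by between 0.189 and 10.1 percentage points on average. In cyb-3, with acceptors 3 nt apart, the nearer one took 97.0% ± 1.11 of reads in controls and 97.4% ± 0.466 after spk-1(RNAi) (SD, n = 4). In eif-3.G, a translation initiation factor subunit with acceptors 6 nt apart, it took 52.5% ± 1.12 and 50.2% ± 3.18 (SD, n = 4). cfim-2, a subunit of the cleavage factor of mRNA 3′ ends, had 62.7%, 69.0%, 75.3% and 75.3% in the controls and 69.6%, 66.1%, 64.8% and 63.7% after spk-1(RNAi), so that pair 1 went up and the other 3 down. C37C3.2, with acceptors 10 nt apart, moved by the most, from 50.8%, 53.1%, 37.7% and 56.8% to 43.0%, 42.4%, 37.1% and 35.4%, lower in every pair with overlapping groups. Its longer intron had an unadjusted p of 0.131 and an adjusted p of 1 in edgeR's test against its gene.

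**Figure D5:**
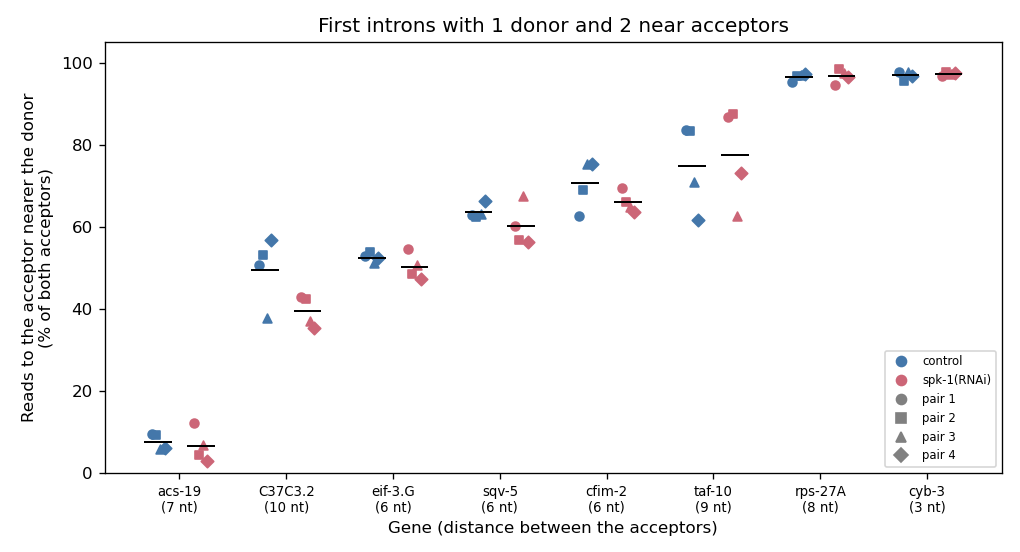
Reads to the acceptor nearer the donor as a percentage of the reads of both acceptors, for the 8 first-intron donors with acceptors at most 10 nt apart, ordered by the control mean; points are libraries and black lines group means. Shares run from 2.88% to 12.3% in acs-19 to over 94% in rps-27A and cyb-3, and control and spk-1(RNAi) libraries overlap in every gene.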

How the data were processed

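Reads over introns were taken from a table of the whole series. Per the file headers, the authors' values are read counts per intron and library, not normalized, and the file also holds a ratio within each numbered pair of libraries and a p-value per intron. TopHat 1.4.1, Bowtie2 2.0.0 and the build ce10 appear in the submitters' processing notes, with no role stated. Which counter and annotation were used, and by what rule introns were listed, is not given in the sources used here. The authors' deposited exon-bin table gives adjusted p-values, and DEXSeq is named by the table itself.

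The same spk-1(RNAi) heading stands over 2 columns, of which the later was taken as replicate 4. The authors' ratio of replicate 1 equalled the quotient of the other column and control replicate 1 in 99.95% of introns, within a tolerance of 1e-06. The p-values of 2 introns, both of spk-1, could not be read. Of the columns with values of samples, 0 were left out. Of 25 introns listed on both strands, 1 copy was kept by the strand of the gene, and 160 introns had no gene name. Positions come from the deposited table in ce10, with starts counted from 1. The reference annotation is of another build and gave only symbols, strands and lengths, with 5709 of 5762 genes matched.

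Counts were fitted in edgeR 4.0.16 (R 4.3.3, limma 3.58.1) with TMM scaling by the quasi-likelihood test over all 20324 introns and by diffSpliceDGE over 18772 introns of genes with at least 2, with Benjamini-Hochberg adjustment at 0.05. Replicate number was a block, because the authors' ratios are formed within numbered pairs. Same-numbered libraries deviated together, with correlations of 0.871, 0.648, 0.661 and 0.735 for numbers 1 to 4 across introns, which are not independent. The first-to-later ratio used 0.5 added to reads. CPM used TMM library sizes. The members and lists were chosen with earlier results of these data known. Named introns were every one called in a test, the 8 lowest p-values against the gene with 1 direction in 4 of 4 pairs, the 4 lowest and 4 highest control ratios (mean of at least 100 reads, at least 3 later introns), the 4 highest CPM, the shortest and longest, and those of SR protein genes. Alternatives were other scaling (DESeq2 1.42.0 size factors), count filters, DESeq2's Wald test, no block, subsets of pairs, each pair left out, other sets of later introns and, chosen after seeing the data, plus-strand first introns alone. Where genes overlap or are near-identical, the authors' counting could have split reads between them. Library totals, 1821717 to 47299659 reads, limit the shallow pairs most.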

Additional observations from a re-analysis of the deposited data

Results flagged for a closer look

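Of 45 groups of 4 libraries examined, 5 held a library far from the others by Dixon's criterion, and chance alone flags about 1 in 20. In the controls, the first-to-later ratio of tars-1 was 0.670 in replicate 2 against 0.0722 to 0.124 in the others, where that library had 64 reads over the intron. After spk-1(RNAi), sod-1 had 0.220 in replicate 2 against 0.0754 to 0.0964. K07H8.2 had 1.89 in control replicate 1 against 7.05 to 7.62, and tbc-3 had 1.30 in the same library against 6.23 to 6.40. rsp-5 had 0.895 in spk-1(RNAi) replicate 1 against 0.265 to 0.365. The far library belonged to replicate 1 or 2 each time, and its part in the flag was not tested.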

How the results depend on the processing

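The count of first introns called against their gene by edgeR was 0 with and without the replicate block, and 1 (F54D8.6) in pairs 3 and 4 alone. It was 0 under the other scaling, the filters, pairs 2 and 3, the second intron alone, each pair left out and plus-strand first introns alone. In the test of reads, 2 (0.102%, beside 0.0689% of all introns) were called with the block and 0 without it. There were 44 (2.24%, beside 1.41% of all introns) in pairs 3 and 4 alone and 8 (0.407%, beside 0.246%) by DESeq2's Wald test. With 1 pair left out the count was 0 to 4, and the 4 (0.203%, beside 0.143% of all introns) came without replicate 1. The median change ran from −0.07 to 0.02 with 1 pair left out, positive only without pair 2, and was −0.03 without the pairing and −0.08 among first introns with a mean of at least 1000 reads. There the control median rose from 0.12 to 0.54 (log2). This filter uses the reads of the first intron, the upper part of the ratio, so a higher level follows from the filter itself. In that set 54 were lower and 18 higher in every pair. With 1 pair left out, 217 to 270 were lower and 140 to 269 higher in the 3 remaining pairs, since fewer pairs must share a sign. The control median ran from 0.05 to 0.19 with 1 pair left out and was 0.22 against the second intron alone. With plus-strand first introns alone the median change was −0.03, the control median 0.12, and 137 were lower and 97 higher. At an authors' p-value under 0.05 there were 131 first introns, and the share over all introns at that limit is not given here. Of the values for single named introns under an alternative, 108 kept their side of the threshold, 8 lost it (acdh-1) and 1 gained it (F54D8.6). The planned count of exon bins next to first introns was not run, because bins were not placed by coordinates.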
